A study of Mus musculus with 2 samples.

Results

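The 10 genes Slc30a1 to Slc30a10 encode the zinc transporters of the Slc30 (ZnT) family. They were taken by symbol from the 38924 Ensembl genes of 2 islet RNA libraries, and all 10 were found. Each library came from the hormone-secreting islets of male mice aged 10 weeks. One was made from C57BL/6J mice (B6), the strain of the mouse reference genome, and the other from CAST/EiJ mice (CAST), an inbred strain of wild castaneus origin. In both strains the mice ate standard chow, and the islets were freed with collagenase, hand picked and held in buffer with 16.7 mM glucose. Islets of 2 mice per strain were pooled, and 250 of them gave 1 library, so each group is 1 pool and holds no replicate. Nothing is known here of the spread between mice, and no difference between the strains was tested. All intervals below cover counting error only, and they treat reads as independent molecules, which sequencing reads are not.

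Slc30 proteins move zinc out of the cytosol, either out of the cell or into vesicles, granules, the Golgi or other compartments, and most of them work as dimers that exchange zinc for protons. The Slc39 (ZIP) proteins move zinc the other way, into the cytosol, and metallothioneins bind it there. Beta cells of the islet are unusually rich in zinc, because insulin is packed with zinc in the secretory granule. The granule transporter is Slc30a8 (ZnT8), which alpha cells carry as well.

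The B6 library held 76600903 expected counts and the CAST library 104324631. Both libraries carried the defining genes of islets. The 9 beta cell markers were at 1 TPM or more in each, where TPM is a level corrected for transcript length and scaled to the same sum in each library, and they made up 19.6% of counts in B6 and 24.7% in CAST. Alpha cell markers (7 genes) held 5.41% and 3.72%. Acinar markers, 26 genes of the enzyme-secreting cells around the islets, held 0.863% in B6 and 3.53% in CAST, and their summed level was 9739 TPM and 33867 TPM. In counts scaled with the TMM factors described below, the log2 ratio of CAST over B6 was above 0 for all 26, at a median of 1.99. It ran from 0.17 (Bhlha15) to 11.28 (Cela3a), and no marker was at 0 in both libraries. By TPM Bhlha15 was lower in CAST, at 21.9 in B6 and 19.4 in CAST. Amy2b alone was at 3.87 TPM in B6 and 4670 TPM in CAST. Stellate cell and fibroblast markers had a median of 1.09 over 9 genes, duct markers 0.80 over 6, endothelial markers 0.41 over 7, leukocyte markers 0.35 over 6 and delta and PP cell markers -0.57 over 6. Fewer cells of a type and less RNA per cell cannot be told apart in whole islets.

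Slc30a8 dominated the family in both strains. Its level was 671 TPM in B6 (counting interval 667 to 676) and 543 TPM in CAST (539 to 546), which placed it at rank 62 and rank 78 of all genes. It made up 86.9% of the summed level of the 10 genes in B6 and 86.3% in CAST. The next member in each library was 19.2 times lower in B6 (Slc30a5) and 16.6 times lower in CAST (Slc30a9). The other 9 genes together reached 102 TPM and 85.9 TPM.

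Below Slc30a8 the members fell into an intermediate and a barely detected group. The next member in CAST and the order of Slc30a5 and Slc30a9 depend on the length taken for 1 Slc30a9 transcript, at whose GENCODE length Slc30a9 came to 21.5 and 20.3 TPM, below Slc30a5 in both libraries. As deposited, Slc30a5 and Slc30a9 lay at 35.0 and 34.8 TPM in B6, with overlapping counting intervals, and at 24.7 and 32.7 TPM in CAST, with intervals apart. Slc30a4 followed at 9.18 TPM in B6 and 9.81 in CAST. Slc30a7, Slc30a6 and Slc30a1 were between 7.32 and 7.67 TPM in B6, where neighbours in the order were not separated by their intervals, and between 5.25 and 7.24 TPM in CAST, where they were, in the order Slc30a6, Slc30a1, Slc30a7. Slc30a2, Slc30a10 and Slc30a3 were under 1 TPM in both libraries. Thus 7 of the 10 were at 1 TPM or more in each library, and they were the same 7 genes.

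**Figure D1:**
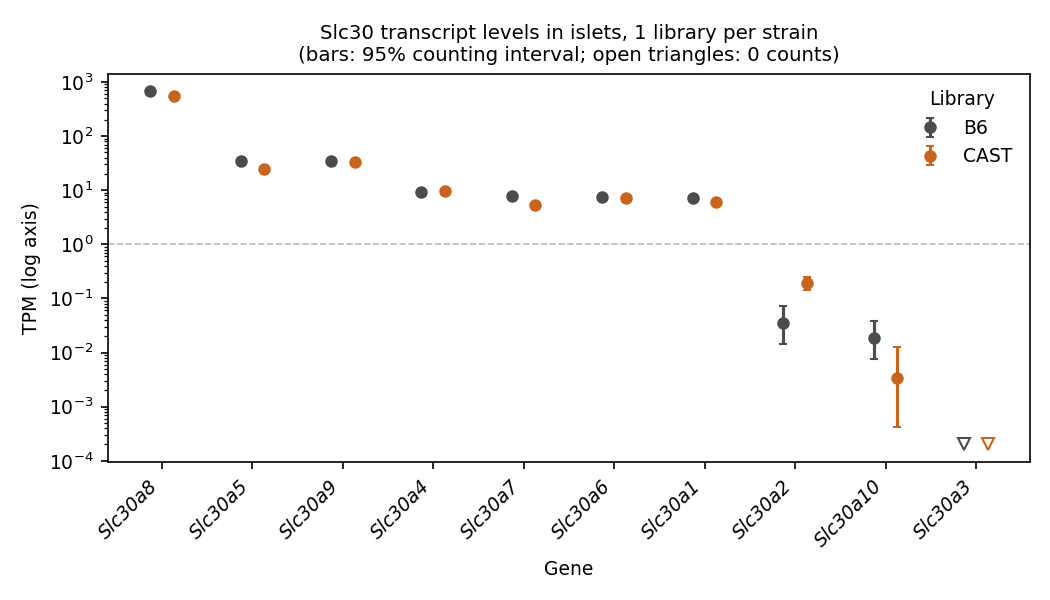
Level of each Slc30 gene (TPM, log axis) in the B6 and CAST libraries, ordered by the B6 level; bars are 95% counting intervals, the dashed line marks 1 TPM, and open triangles at an arbitrary height mark the gene with 0 counts. Slc30a8 stands at 671 and 543 TPM, 6 genes lie between 5.25 and 35.0 TPM, and Slc30a2, Slc30a10 and Slc30a3 lie under 1 TPM.

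The 7 abundant members were then compared between the libraries. The comparison used expected counts scaled with TMM factors, which set the bulk of genes equal, and is given as the log2 ratio of CAST over B6. Genes needed 100 counts, B6 and CAST summed. No member of the 7 was 2-fold apart, where 13.2% of the 14768 genes that passed this minimum were (7.18% higher in CAST, 5.99% higher in B6). With 7 genes a count of 0 is near that share and sets the family apart from no other genes. The 7 ratios ran from -0.20 (Slc30a7) to 0.42 (Slc30a4), with a median of 0.06 (-0.10 with total counts and -0.25 by TPM) beside a median of 0.02 over all genes. The median of all genes was -0.14 with total counts and -0.26 by TPM, shifts of -0.16 and -0.28 against TMM. Each log2 ratio by TPM has 1 added to both levels, which draws genes of low TPM towards 0. Measured from the median of all genes, Slc30a4, Slc30a6, Slc30a9 and Slc30a1 lay above it and Slc30a5 and Slc30a7 below it, with TMM and by TPM. Slc30a8 lay on both sides, at 0.02 with TMM and -0.04 by TPM, where the added 1 hardly moves its own ratio. Whether this change of sign comes from the added 1 was not tested. Total counts and DESeq2 factors give the same values as TMM here by construction, because subtracting the median removes a factor common to all genes.

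**Figure D2:**
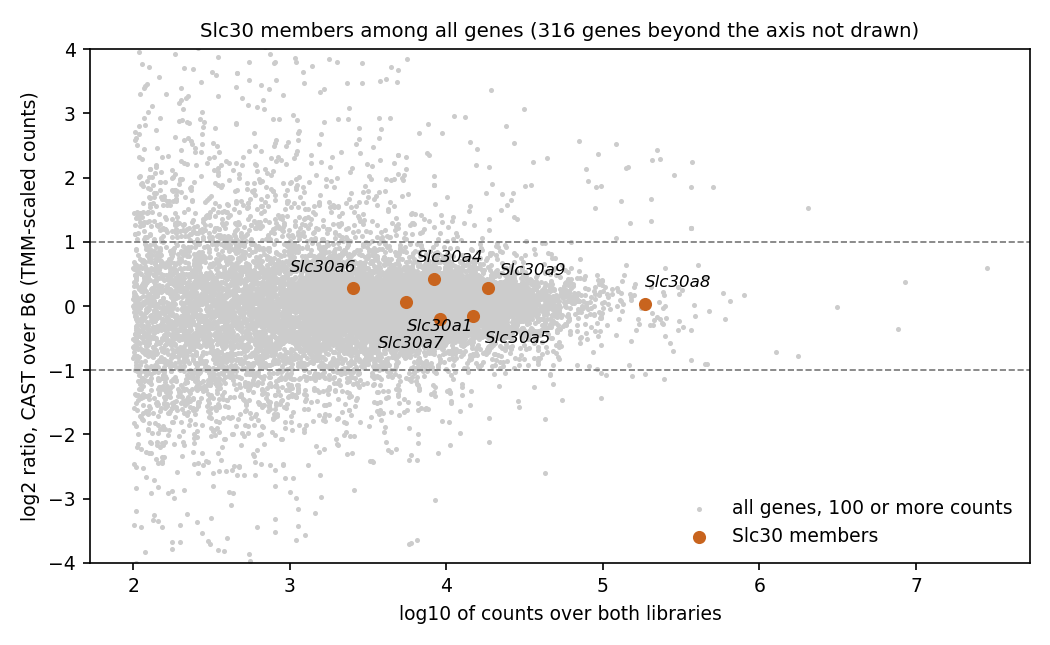
Log2 ratio of CAST over B6 (TMM-scaled counts) against the log10 of counts over both libraries, with the 7 Slc30 genes of 100 or more counts in orange over all such genes in grey; dashed lines mark 2-fold, and 316 genes lie beyond the axis. The 7 genes lie between -0.20 and 0.42, inside the dashed lines.

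**Figure D3:**
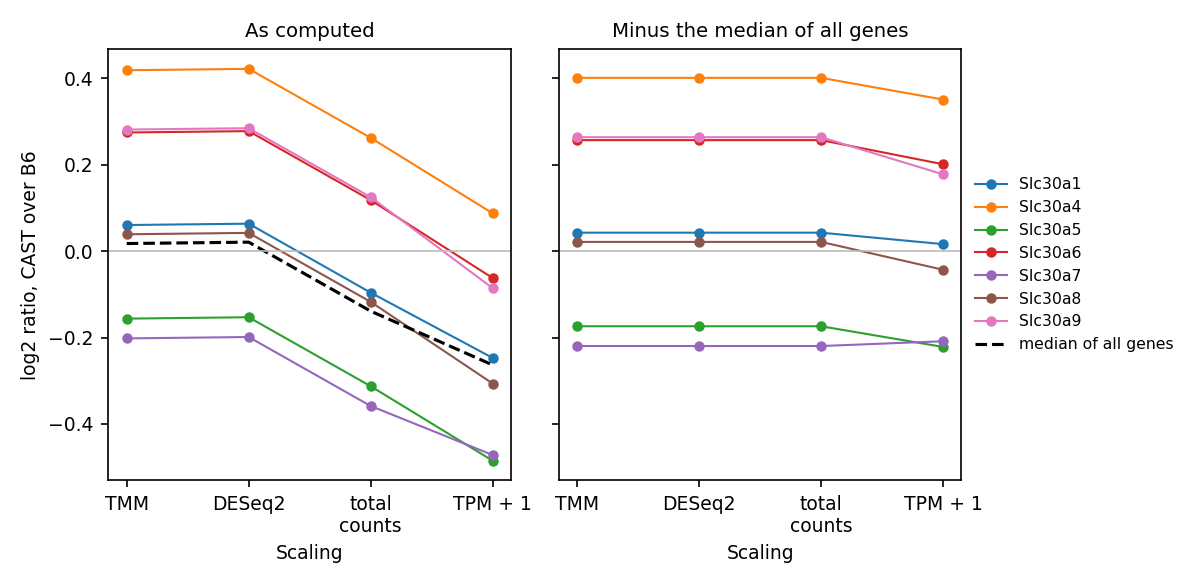
Log2 ratio of CAST over B6 for 7 Slc30 genes under 4 scalings, as computed (left, with the median of all genes dashed) and after that median was subtracted (right). The ratios shift down together with total counts and TPM. After subtraction TMM, DESeq2 and total counts are identical by construction. There and by TPM Slc30a4 is highest, Slc30a5 and Slc30a7 lowest, and Slc30a8 near 0.

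Slc30a1 and Slc30a10 act at the cell surface. Slc30a1 (ENSMUSG00000037434, chromosome 1, 191906767 to 191913247, GRCm38) is the main zinc exporter of the plasma membrane. It had 2447 counts in B6 and 3118 in CAST, or 7.32 and 6.01 TPM, a log2 ratio of 0.06 (counting interval -0.02 to 0.14) that was -0.10 with total counts and -0.25 by TPM. The interval includes equality with TMM factors, and the direction of the ratio depended on the scaling. The antisense gene 1700034H15Rik shares 468 exon bases with Slc30a1 and had 132 and 102 counts, and without a stated strand setting the reads of both cannot be told apart.

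Slc30a10 (ENSMUSG00000026614, chromosome 1, 185454848 to 185468762), known mainly as an exporter of manganese, was close to absent. There were 7 counts in B6 and 2 in CAST, which is 0.0188 and 0.00346 TPM. The log2 ratio of -1.87 had a counting interval of -5.40 to 0.30 and so did not separate the libraries.

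Slc30a1 belongs with the metallothionein genes Mt1 and Mt2 to the known targets of Mtf1, a transcription factor that senses zinc and binds metal response elements. The promoters of these 3 genes are shown because they are known to share this factor and their levels are compared here. Each runs from 250 bases before to 50 bases after the RefSeq start (GRCm38.p6, + strand), and capitals mark the element's core, searched as TGCACNC and TGCGCNC on both strands. Slc30a1 lies at chr1:191906531-191906830, Mt1 at chr8:94178839-94179138 and Mt2 at chr8:94172368-94172667.
Slc30a1: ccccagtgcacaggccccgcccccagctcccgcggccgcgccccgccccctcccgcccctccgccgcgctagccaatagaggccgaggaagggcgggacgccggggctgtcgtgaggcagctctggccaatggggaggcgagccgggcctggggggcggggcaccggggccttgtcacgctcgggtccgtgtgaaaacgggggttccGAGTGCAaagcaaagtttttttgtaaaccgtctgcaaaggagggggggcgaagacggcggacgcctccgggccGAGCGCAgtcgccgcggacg
Mt1: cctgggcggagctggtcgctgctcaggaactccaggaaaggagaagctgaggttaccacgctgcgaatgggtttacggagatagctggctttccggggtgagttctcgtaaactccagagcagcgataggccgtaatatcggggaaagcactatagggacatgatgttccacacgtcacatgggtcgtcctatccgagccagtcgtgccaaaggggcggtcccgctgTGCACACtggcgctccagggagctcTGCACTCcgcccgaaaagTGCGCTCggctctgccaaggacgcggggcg
Mt2: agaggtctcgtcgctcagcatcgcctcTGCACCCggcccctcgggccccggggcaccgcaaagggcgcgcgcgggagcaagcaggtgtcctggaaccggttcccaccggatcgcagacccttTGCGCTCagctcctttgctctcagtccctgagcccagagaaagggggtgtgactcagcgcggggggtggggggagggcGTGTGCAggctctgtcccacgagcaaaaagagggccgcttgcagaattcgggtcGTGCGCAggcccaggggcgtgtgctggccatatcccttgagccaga

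The core occurred 2 times in the Slc30a1 window, at -43 and 31 from the start and on the opposite strand, 3 times in that of Mt1 and 4 times in that of Mt2. Of 32851 RefSeq promoters of this length 25.7% held at least 1 core and 1.97% at least 3. RefSeq windows were at hand for 9 of the 10 Slc30 genes, all but Slc30a8, and 6 of the 9 held a core: Slc30a1, Slc30a2, Slc30a3, Slc30a4, Slc30a5 and Slc30a10. Of these Slc30a2, Slc30a3, Slc30a5 and Slc30a10 held only TGCGCNC. The Slc30 windows were 53.3% (1 of Slc30a3) to 81.7% (Slc30a4) G and C. The share among all promoters was not matched for this content. Slc30a3 has 2 such windows, of which 1 held a core. In Slc30a10, 2 of the 3 matches overlap on opposite strands. These matches are a description of the letters, not of binding.

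The vesicle and granule members are Slc30a8, Slc30a4, Slc30a2 and Slc30a3. Slc30a8 (ENSMUSG00000022315, chromosome 15, 52295553 to 52335798, GRCm38, + strand) is listed with a single transcript of 8 exons and 1101 coding bases. It had 82199 counts in the B6 library and 103194 in CAST. The scaled ratio was 1.03-fold higher in CAST (log2 0.04, counting interval 0.03 to 0.05), but log2 -0.12 with total counts and -0.31 by TPM, so its direction depended on the scaling.

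A ratio of Slc30a8 to another gene of the same library does not depend on how the libraries are scaled. Per TPM of Ins2, the more abundant insulin gene, there were 0.00166 TPM of Slc30a8 in B6 and 0.00114 in CAST. In counts, Slc30a8 per Ins2 was 1.47-fold higher in B6, and per Ins1 1.26-fold. Slc30a8 thus lay lower against the insulin genes in the CAST library than in the B6 library.

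Against other beta cell and granule genes the position of Slc30a8 varied in both directions. Of 11 such genes 4 had a ratio above that of Slc30a8 and 7 below it. Per G6pc2, which encodes an islet glucose-6-phosphatase, Slc30a8 was 1.34-fold higher in CAST, and per Glp1r, the incretin receptor gene, 1.27-fold. Per Ptprn2, a granule membrane phosphatase gene, it was 1.25-fold higher in CAST, whereas per its relative Ptprn it was 1.22-fold higher in B6. Per Pcsk1 and Pcsk2, the prohormone convertase genes, it was 1.17-fold and 1.19-fold higher in CAST.

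Cpe and Iapp lay nearest to a constant proportion among the 11. There were 0.307 TPM of Slc30a8 per TPM of Cpe, the carboxypeptidase that trims prohormones, in B6 and 0.300 in CAST. For Iapp, the islet amyloid gene, the proportion was 0.0233 and 0.0243. The other beta cell markers also went both ways. Per count of the transcription factor genes, Slc30a8 was 1.19-fold higher in CAST for Pdx1, 1.11-fold higher in B6 for Mafa and 1.00-fold for Nkx6-1. For Slc2a2, the glucose transporter gene, it was 1.51-fold higher in B6, and for Ucn3, a peptide of mature beta cells, 1.05-fold higher in B6.

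**Figure D4:**
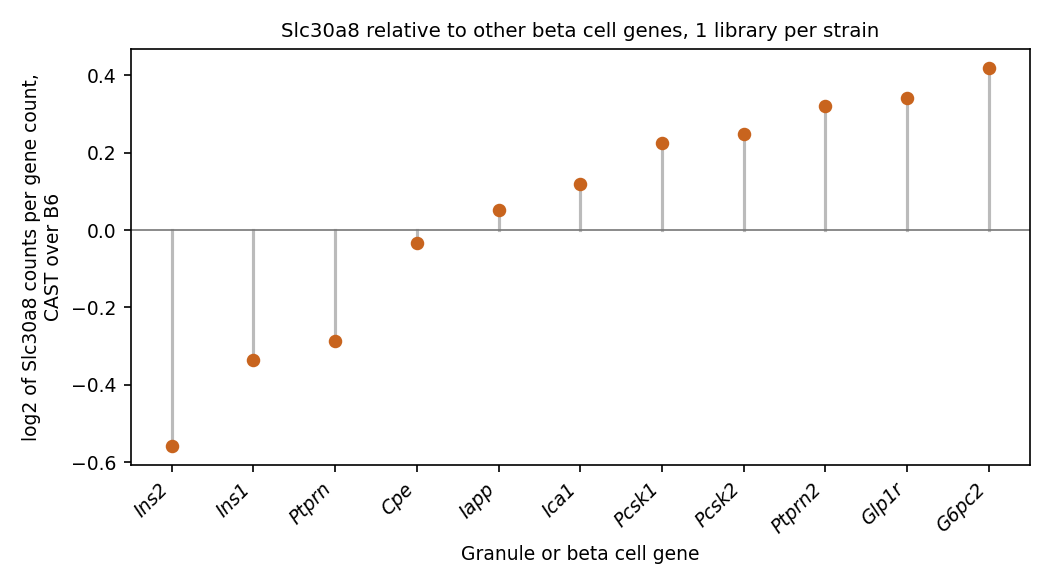
Log2 change from B6 to CAST in the number of Slc30a8 counts per count of each of 11 granule and beta cell genes, 1 library per strain; values below 0 mean fewer Slc30a8 counts per count of that gene in CAST. The points run from -0.56 for Ins2 to 0.42 for G6pc2, with Cpe at -0.03 and Iapp at 0.05 nearest to 0.

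Slc30a4 (ENSMUSG00000005802, chromosome 2, 122681233 to 122702663, GRCm38, - strand) fills vesicles with zinc and is the gene of the lethal milk mouse, whose milk lacks zinc. It had 3170 counts in B6 and 5179 in CAST, or 9.18 and 9.81 TPM. The log2 ratio of 0.42 (0.36 to 0.48), or 1.34-fold higher in CAST, was the highest of the 7 and stayed above 0 with total counts (0.26) and by TPM (0.09). The longer transcript Slc30a4-201, with 1290 coding bases, carried 98.9% of counts in B6 and 96.7% in CAST. Slc30a4-202, with 1143 coding bases, had 36 and 170 counts, a share of 1.12% (exact Clopper-Pearson interval 0.797 to 1.57) and 3.28% (2.81 to 3.80). The share of the shorter form was thus higher in the CAST library beyond counting error. The division of reads between these overlapping forms by the quantification adds error that the intervals do not cover.

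Slc30a2 (ENSMUSG00000028836, chromosome 4, 134343181 to 134354484) loads zinc into vesicles of secretory epithelia and is known in mammary gland and exocrine pancreas. It had 7 counts in B6 and 54 in CAST, or 0.0358 and 0.194 TPM, and with 61 counts in all it did not reach the minimum. The log2 ratio was 2.57 (1.52 to 4.04). By TPM with 1 added it was 0.20, as the added constant exceeds both levels. The acinar markers, all above 0 in TMM-scaled counts with the median of 1.99 given above, went the same way as Slc30a2. Among them Ptf1a, Rbpjl and Bhlha15 were at only 0.43, 0.36 and 0.17. The part of acinar cells in the ratio of Slc30a2 was not tested. The transcripts that were assigned counts differed too. All 7 B6 counts were assigned to a transcript with 873 coding bases, while 50 of the CAST counts went to a transcript with 1113 coding bases and 3 to another with 966. The first 2 are close in length, at 3102 and 3153 bases. With 7 counts, and with reads divided among overlapping transcripts by the quantification, a difference in transcripts between the strains cannot be read from this.

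Slc30a3 (ENSMUSG00000029151, chromosome 5, 31086106 to 31108237), the zinc transporter of synaptic vesicles in neurons, had 0 counts in both libraries over its 6 transcripts. A count of 0 allows up to 3 counts, or 3.92e-06% of the library in B6 and 2.88e-06% in CAST.

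Slc30a5, Slc30a6 and Slc30a7 supply zinc to the early secretory pathway and the Golgi, where Slc30a5 pairs with Slc30a6 and Slc30a7 pairs with itself, and where zinc enzymes such as alkaline phosphatase are loaded. Slc30a5 (ENSMUSG00000021629, chromosome 13, 100802648 to 100833427) had 7020 and 7697 counts, 35.0 TPM in B6 and 24.7 in CAST. Its log2 ratio was -0.16 (-0.20 to -0.11). Slc30a7 (ENSMUSG00000054414, chromosome 3, 115938973 to 116007406) had 4439 and 4715 counts, 7.67 and 5.25 TPM, with a ratio of -0.20 (-0.26 to -0.14). Both stayed below 0 with total counts and by TPM, so these were the 2 abundant members that were higher in B6 under each scaling.

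Slc30a6 (ENSMUSG00000024069, chromosome 17, 74395608 to 74424221) had fewer counts than the other abundant members, 1022 in B6 and 1511 in CAST, at 7.60 and 7.24 TPM. Its ratio of 0.27 (0.16 to 0.39) was 0.12 with total counts but -0.06 by TPM. The partners thus went opposite ways by TMM-scaled counts. Slc30a5 stood at 4.60 TPM per TPM of Slc30a6 in B6 and at 3.41 in CAST, a comparison within each library that no scaling enters. Slc30a5 per Slc30a7 was nearly equal, 4.56 and 4.71.

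In Slc30a7 the pseudogenes Gm6649 and Gm43106 lie inside its exons on the opposite strand and share 1165 and 637 bases with it. Neither is among the genes that were quantified, so any reads from them were not separated from those of Slc30a7. Slc30a6 counts went wholly to Slc30a6-201, with 0 for the near-equal form Slc30a6-202 in each library.

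Slc30a9 (ENSMUSG00000029221, chromosome 5, 67306955 to 67358443, GRCm38, + strand) is known as a zinc exporter of mitochondria. Its counts were 7392 in B6 and 10979 in CAST, at 34.8 and 32.7 TPM. The log2 ratio of 0.28 (0.24 to 0.32) was 0.13 with total counts and -0.09 by TPM. It was the only member with more than 1 abundant transcript.

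Slc30a9-201 (17 exons, 1641 coding bases) held 50.6% of the gene's counts in B6 and 49.6% in CAST, and the 18-exon transcript (1701 coding bases) 42.1% and 45.2%. The retained-intron form held 518 of the 7392 counts in B6 (exact Clopper-Pearson interval of the share 6.44% to 7.61%) and 545 of the 10979 in CAST (4.57% to 5.39%). The retained-intron share was higher in the B6 library beyond counting error. How the quantification divides reads among these overlapping transcripts adds error that no interval here covers.

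The level of Slc30a9 rests on transcript lengths. Counts per TPM of Slc30a9-201 were 0.428 of those of the 18-exon transcript in both libraries, while the lengths of 5648 and 5711 bases in GENCODE M21 differ little. For the other abundant member transcripts the implied and annotated lengths ran close, as for Slc30a7-201 at 1.55 and 1.58 of that transcript. With Slc30a9-201 at its GENCODE length, a choice made after seeing the data, Slc30a9 came to 21.5 TPM in B6 and 20.3 in CAST. Slc30a5 then lay above it in both libraries, so the order of these members depends on that length.

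The zinc importers of the Slc39 family were set beside the exporters. Summed levels were 267 TPM for the 14 Slc39 genes in B6 and 237 in CAST, against 773 and 629 TPM for the Slc30 family. Without Slc30a8 the exporters summed to less than the importers. Slc39a7, which releases zinc from the endoplasmic reticulum and Golgi, led at 139 and 132 TPM, 51.9% and 55.7% of its family, so 1 gene dominated in both families.

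Of the 14 Slc39 genes 12 had 100 or more counts, and 2 of them were 2-fold apart, beside 13.2% of all genes. Their median log2 ratio was 0.06 (-0.10 with total counts and -0.24 by TPM), that of the Slc30 genes. Slc39a5, a transporter of intestine and acinar pancreas, was at 149 and 631 counts in the B6 and CAST libraries, with a log2 ratio of 1.79 (1.53 to 2.06), and the acinar markers moved with it, at a part not tested. Slc39a2 had 85 and 23 counts (log2 -2.15, -2.91 to -1.50) and passed the minimum through its B6 counts. By TPM with 1 added neither was 2-fold apart (0.97 and -0.52). The levels themselves, 1.21 TPM in B6 and 3.32 in CAST for Slc39a5 and 0.569 and 0.0947 for Slc39a2, lie past 2-fold. The added 1 is large beside them.

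Among the importers at 10 TPM or more the largest difference in TMM-scaled counts was 1.21-fold (Slc39a7), while by TPM it was log2 -0.57 (Slc39a3). Slc39a7 differed by log2 0.28 (-0.08 by TPM), Slc39a1, a surface importer, by 0.24 (-0.10 by TPM), Slc39a9 by 0.09 (-0.07 with total counts and -0.25 by TPM) and Slc39a13 by 0.04 (-0.12 with total counts and -0.33 by TPM). Slc39a6 differed by -0.04 and Slc39a3 by -0.20, below 0 under each scaling. Slc39a7 and Slc39a1 share near-identical sequence with the gene entries Gm20427 and Slc39a1-ps, and with the counts of these added the ratios were 0.23 and 0.31. Slc39a12 had 0 counts in both libraries.

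Mt1, Mt2 and Mt3 were lower in CAST under each scaling. Mt1 had 23565 counts in B6 and 17210 in CAST, or 791 and 371 TPM, and was 1.67-fold higher in B6 (log2 -0.74, -0.77 to -0.71). Mt2 had 357 and 241 TPM (log2 -0.21, -0.25 to -0.18). Mt3, the form known from brain, had 100 and 56 counts, or 3.37 and 1.21 TPM (log2 -1.12, -1.62 to -0.64). It was the 1 of 4 measured genes of this list past 2-fold, beside 13.2% of all genes, with an interval that spans 2-fold. By TPM with 1 added it was at -0.98, drawn towards 0 by the added 1, as its levels alone lie past 2-fold. Slc30a1, named with Mt1 and Mt2 above as a target of the same factor, was at 0.06 (-0.10 with total counts).

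Mtf1 itself differed by log2 -0.09 (-0.16 to -0.03), and by 0.13 with the counts of 1110065P20Rik, with which it shares sequence, added. The median of the 4 genes was -0.48 beside 0.02 over all genes, and Mt4 had 0 counts. In levels, Slc30a8 stood at 0.849 TPM per TPM of Mt1 in B6 and at 1.46 in CAST. Slc30a8 was thus below Mt1 in the B6 library and above it in the CAST library.

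Of 3 further transporters 0 were 2-fold apart, beside 13.2% of all genes, which for 3 genes is near that share. Tmem163, a vesicle zinc transporter outside both families, was at 41.0 and 25.2 TPM and 1.28-fold higher in B6 (log2 -0.36, and -0.68 by TPM). Its level exceeded that of each Slc30 gene except Slc30a8 in B6. Atp2c1 and Tmem165, which carry manganese and calcium in the Golgi, differed by 0.36 and 0.34 (0.03 and -0.09 by TPM).

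**Figure D5:**
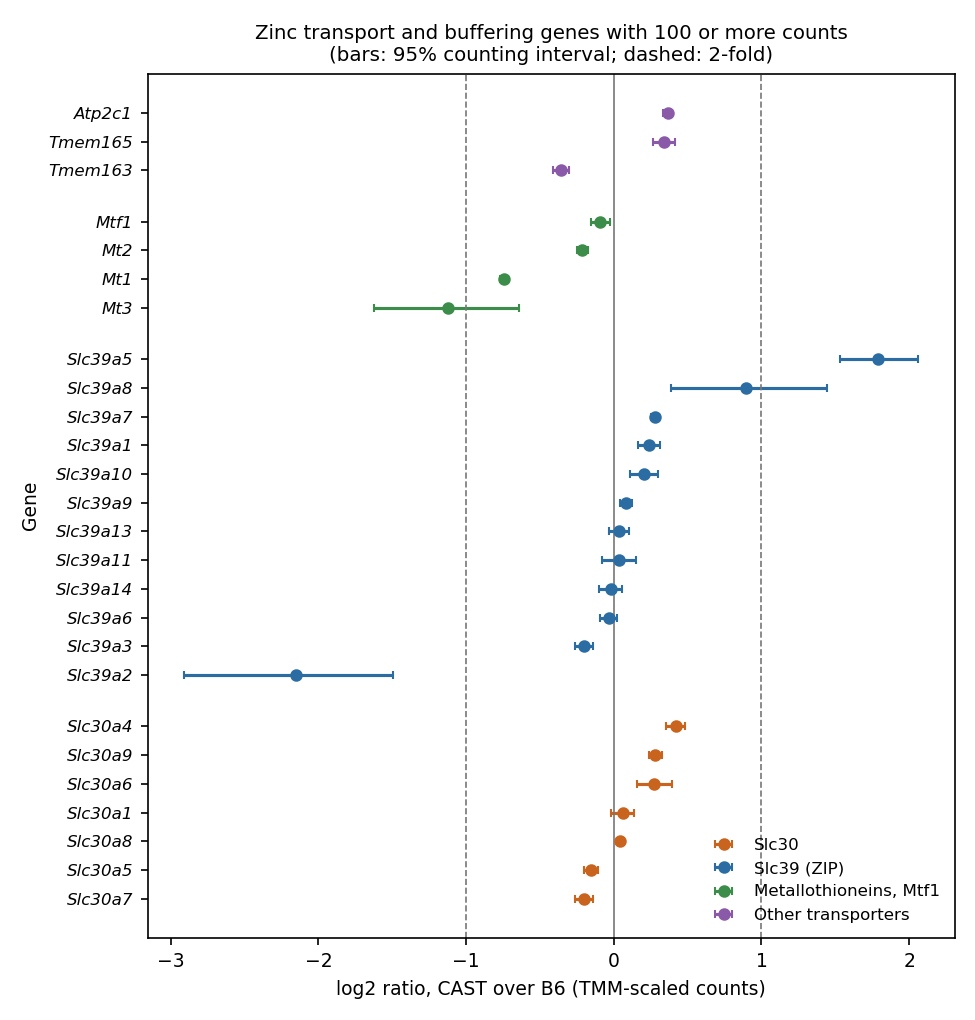
Log2 ratio of CAST over B6 (TMM-scaled counts) with 95% counting intervals for Slc30 genes (orange), Slc39 genes (blue), metallothioneins and Mtf1 (green) and other transporters (purple) of 100 or more counts; dashed lines mark 2-fold. The Slc30 genes lie between -0.20 and 0.42, and Slc39a2, Slc39a5 and Mt3 lie past 2-fold.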

How the data were processed

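The authors deposited 1 table per library with 94545 Ensembl transcripts. Its first value is the expected count from RSEM, which divides reads among transcripts, on GRCm38, per the submitters' processing notes. Its second value is the deposited fraction of transcript molecules, which sums to 1 per library and was multiplied to TPM. For the aligner, the annotation used and the strand setting: not given in the sources used here. Reads of CAST carry variants against the reference, and their effect was not tested.

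Counts were summed per gene and rounded, and 37607 of 38924 genes had a GENCODE M21 symbol. Ratios used edgeR 4.0.16 TMM factors (1.056 and 0.947), 0.5 added to each count, and a minimum of 100 counts per gene, B6 and CAST summed. Intervals are 95% exact Clopper-Pearson for ratios and shares, and exact Poisson, scaled from counts, for TPM. The floor is 3 counts. The computation was tested on simulated data. DESeq2 1.42.0 size factors, total counts, TMM without marker genes, TPM with 1 added, thinning, count minimums and coding transcripts were alternatives. Copies (95% identity over 200 bases and 50% of the shorter transcript) came from minimap2 2.31. Promoters are from RefSeq (GRCm38.p6).

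All 10 members are named, and other zinc genes at 10 TPM, at least 2-fold apart or fixed by name. The beta cell markers Nkx6-1, Pdx1, Mafa, Ucn3 and Slc2a2 were added after their values were seen. So were Slc39a12, Mt4, Alpl, Pign, Pigg and Enpp3, and the acinar markers Bhlha15, Cela3a, Amy2b, Ptf1a and Rbpjl. Members and lists were chosen with earlier results of these data known. Proteins were not analysed here.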

Additional observations from a re-analysis of the deposited data

How the results depend on the processing

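With 1 library per strain no replicate could be left out, and depth limits Slc30a2, Slc30a10 and Slc30a3. No paired analysis was possible because each strain has 1 library. The count of Slc30 genes 2-fold apart was 0 under every scaling, after thinning CAST and with coding transcripts only. It was 1 with a minimum of 20 counts (Slc30a2) and 2 with none (Slc30a2 and Slc30a10). The median log2 ratio of 0.06 was -0.10 with total counts, -0.25 by TPM with 1 added and 0.17 with the minimum of 20 counts. The ratio of Slc30a8 (0.04) was -0.12 with total counts and -0.31 by TPM. The Slc39 genes 2-fold apart were 0 by TPM with 1 added against 2, as the added 1 is large beside the low levels of Slc39a5 and Slc39a2. They were 3 with coding transcripts only. The share of Slc30a8 in the family was 76.3% in B6 and 75.6% in CAST by counts, which are not corrected for length, 87.2% and 86.6% with coding transcripts only, and 88.4% and 88.1% with Slc30a9-201 at its GENCODE M21 length, added after seeing the data. For the other members 43 of 56 values stayed inside the counting interval of the reported ratio and 13 moved out of it. Each of these 13 came with total counts or by TPM with 1 added, which shift the median of all genes by -0.16 and -0.28 against TMM. What sets these scalings apart was not tested.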

Other observations

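Zinc enzymes of the secretory pathway, which depend on the zinc that Slc30a5, Slc30a6 and Slc30a7 bring in, were read from a list of 8 genes, all with 100 or more counts. Of these 2 were 2-fold apart, beside 13.2% of all genes, and the median log2 ratio was -0.11 (-0.40 by TPM). By TMM-scaled counts 4 genes lay above 0 and 4 below. Enpp2, which encodes the lysophospholipase D autotaxin, was at 161 TPM in B6 and 54.4 in CAST. It was 2.33-fold higher in B6 (log2 -1.22, -1.25 to -1.19, and below 0 under each scaling). Enpp1, a pyrophosphatase gene, had 132 and 426 counts, or 0.414 and 1.18 TPM (log2 1.40, 1.12 to 1.69). At 0.63 by TPM with 1 added it was not 2-fold apart, as the added 1 is large beside both levels. Alpl, the tissue-nonspecific alkaline phosphatase gene, differed by 0.06 (-0.16 by TPM) with an interval of -0.20 to 0.32. Pign, Pigo and Pigg, which build the glycolipid anchor of surface proteins, were at -0.47, -0.29 and -0.50. Smpd1, the acid sphingomyelinase gene, was at 0.14 (-0.20 by TPM), and Enpp3 at 0.37 (0.05 to 0.70), above 0 under each scaling.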
